A study of Mus musculus with 8 samples.

Results

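The genes described here are 10 serotonin receptor genes of the mouse, Htr1a, Htr1b, Htr1d, Htr1f, Htr2a, Htr2c, Htr3a, Htr4, Htr5a and Htr7. They are 10 of the 54446 gene identifiers in the count table, were chosen by name, and were matched through their GENCODE symbols. Polyadenylated RNA of the medial prefrontal cortex (mPFC), a frontal cortical area, was sequenced in 4 libraries labelled Ino80e overexpression and in 4 labelled wild type. The product of Ino80e belongs to INO80, a complex that repositions nucleosomes, and the human gene lies in a schizophrenia risk locus. Per the series' design text, expression of the risk gene was altered by stereotaxic injection of an adeno-associated virus into the mPFC. The labels name wild-type mice as the other group and do not say whether those mice received a virus. No source used here gives the strain, the age, the promoter in the virus or the number of mice behind a library, so p-values measure only the spread between libraries, which may be partly technical.

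Serotonin reaches the prefrontal cortex through axons of raphe neurons in the brainstem, so the cortex is rich in receptors and poor in cells that make the transmitter. The receptors of the Htr1 and Htr5 families couple to Gi/o proteins, which lower cyclic AMP and open GIRK potassium channels. Those of the Htr2 family couple to Gq and phospholipase C, and the products of Htr4 and Htr7 couple to Gs and raise cyclic AMP. Htr3a encodes a subunit of a ligand-gated cation channel, the ionotropic member of the group.

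Library totals ran from 47700489 to 60490153 counts in the libraries labelled overexpression (OE-labelled below) and from 44762378 to 55379790 counts in the wild-type libraries. Ino80e itself had 74.1, 23.4, 23.3 and 45.0 CPM in OE-labelled replicates 1 to 4, against 22.3, 19.5, 25.5 and 20.7 CPM in wild-type replicates 1 to 4, where CPM is counts per 1000000 counts of the scaled library. OE-labelled replicates 2 and 3 therefore lay within the wild-type range for the targeted gene, and the labels of those 2 libraries are used as given. Exons of Ino80e overlap those of Doc2a on the other strand over 1103 bases or 14.4% of their length, and no source used here gives the strand setting of the counting, so its counts may include reads of that gene. Wild-type replicate 4 stood apart in choroid plexus transcripts: the summed level of 10 choroid plexus markers was 248, 275, 438 and 273 CPM in the OE-labelled libraries and 297, 283, 449 and 2070 CPM in the wild-type libraries. Slc17a7, the vesicular glutamate transporter of cortical excitatory neurons, was at 1982 to 2218 CPM in OE-labelled and at 1791 to 2040 CPM in wild-type libraries. This 1 marker goes with cortical tissue and cannot tell the mPFC from other cortical areas. In bulk tissue, fewer cells of a type and less RNA per cell cannot be told apart.

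No receptor transcript differed between the groups by edgeR's quasi-likelihood test with Benjamini-Hochberg adjustment over all 17636 genes tested. Ino80e, the targeted gene, did not pass this test either, with a log2 fold change of 0.91 ± 0.42 (SE, edgeR adjusted p = 0.513). All 10 receptor genes passed the filter on low counts, and 0 of 10 had an adjusted p under 0.05, against 6 genes or 0.034% of all genes tested (0.0113% higher and 0.0227% lower in OE-labelled libraries). Likewise 0 of 10 had an unadjusted p under 0.05, where 10.7% of all genes did (5.24% higher and 5.43% lower). None of the 10, against 5.84% of all genes, had groups that did not overlap in CPM (2.82% higher and 3.02% lower). limma-voom called 0 of the 10, with 1 unadjusted p under 0.05 (Htr2c), beside 1848 of all 17636 genes. DESeq2 called 0 of the 8 receptors to which it gave an adjusted p and gave none to Htr1d and Htr4. The log2 fold change of OE-labelled over wild-type libraries was below 0 for 9 receptors and above 0 for Htr1f, with a median of -0.065 beside 0.0016 over all genes. The 95% intervals of the 10 receptors all included 0, and their widths ranged widely: the Htr5a interval ran from -0.21 to 0.12, that of Htr2a from -0.20 to 0.19 and that of Htr1d from -1.85 to 0.48. As a ratio of OE-labelled to wild-type libraries, these bounds are 0.863 to 1.09 for Htr5a, 0.871 to 1.14 for Htr2a and 0.278 to 1.39 for Htr1d.

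**Figure D1:**
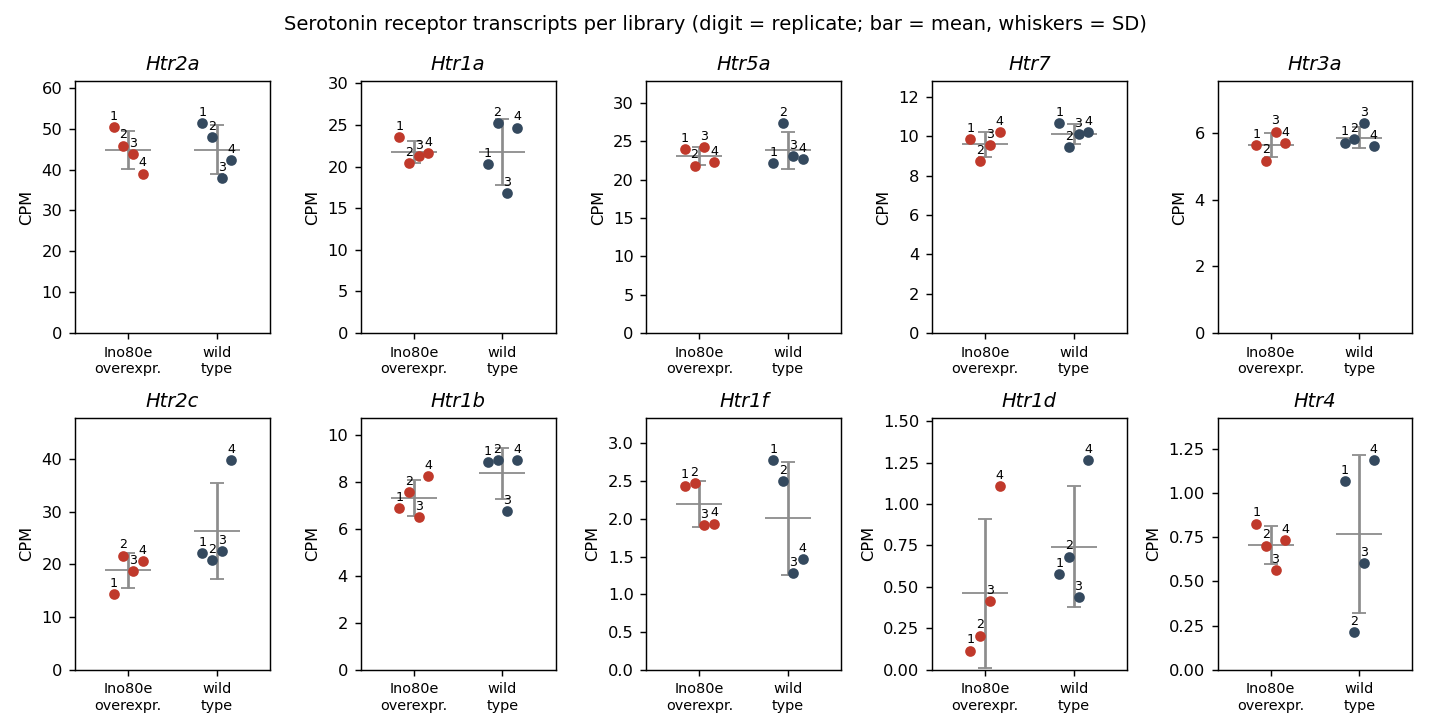
Level of each of the 10 serotonin receptor transcripts in CPM (y axis) in each library, with the 4 libraries labelled Ino80e overexpression left of the 4 wild-type libraries, digits for replicates, and mean and SD as grey bars. The groups overlap for every receptor, and wild-type replicate 4 stands alone at 39.9 CPM for Htr2c.

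On a length-scaled level, CPM per kilobase of merged exon, Htr2a was the most abundant of the 10 receptors at 7.997 ± 0.891 (SD, n = 8 libraries). Htr1a followed at 4.85 ± 0.61 and Htr5a at 4.37 ± 0.34, and the ranges of these 2 overlapped. Htr7 at 2.90 ± 0.18 and Htr3a at 2.77 ± 0.16 could not be separated by their spread either, with Htr7 above Htr3a in 5 of 8 libraries. Htr2c was at 2.42 ± 0.80 and Htr1b at 1.66 ± 0.22. The range of Htr2c, from 1.54 to 4.27, overlapped both neighbours, although it was above Htr1b in 8 of 8 libraries. Htr1f stood clear of both neighbours at 0.814 ± 0.209. At the bottom lay Htr1d at 0.188 ± 0.127 and Htr4 at 0.150 ± 0.062, which overlapped. Besides the step under Htr1f, 3 steps in this order held in 8 of 8 libraries without overlap of the ranges: Htr2a over Htr1a, Htr5a over Htr7 and Htr1b over Htr1f. Htr2a lay at the 71.3rd percentile of this level among the genes tested and Htr4 at the 7.14th. Htr2c has 7 annotated transcripts that together cover 9328 bases, and with the length of the longest one, 4883 bases, its level became 4.63 ± 1.53, between Htr1a and Htr5a.

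**Figure D2:**
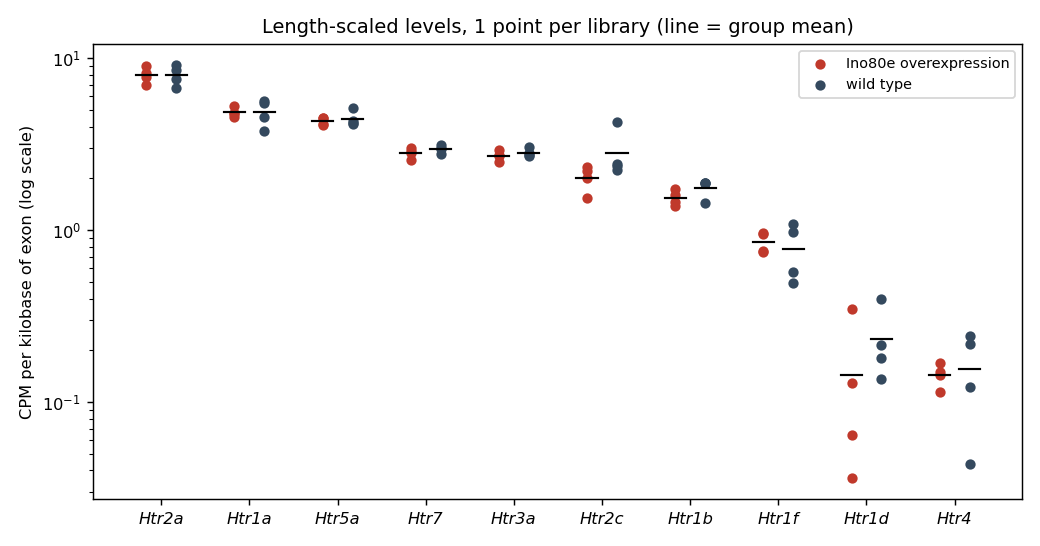
Length-scaled level of each receptor transcript, in CPM per kilobase of merged exon on a log axis, 1 point per library with libraries labelled Ino80e overexpression left of wild type and a line at each group mean. Htr2a leads at 7.997 and Htr1d and Htr4 lie lowest, with the widest relative spread.

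Summed over the 10 receptors, the length-scaled level was 28.5, 27.0, 27.2 and 26.9 in OE-labelled libraries, against 29.4, 30.2, 25.4 and 30.4 in wild-type libraries, and the groups overlapped. Htr2a made up 29.1 ± 2.5% of that sum in OE-labelled and 27.7 ± 2.7% in wild-type libraries (SD, n = 4 each). The share of Htr2c was 7.42 ± 1.44% in OE-labelled and 9.76 ± 3.02% in wild-type libraries, with 14.1% in wild-type replicate 4.

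Among the Gi/o-coupled receptors, Htr1a is the main inhibitory serotonin receptor of cortical pyramidal neurons (GRCm38 chromosome 13, 105443639 to 105448122, plus strand, 1 exon). It had 23.6, 20.4, 21.2 and 21.6 CPM in OE-labelled libraries, against 20.3, 25.2, 16.8 and 24.7 CPM in wild-type libraries. The wild-type libraries enclosed the OE-labelled ones, and the log2 fold change was -0.0012 ± 0.106 (SE; edgeR adjusted p = 0.997; exact two-sided permutation p = 0.914). The smallest p this permutation test can give with 4 against 4 libraries is 0.0286.

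Htr5a, a Gi/o-coupled receptor expressed mainly in the brain (chromosome 5, 27842149 to 27855088, plus strand), had 24.02, 21.9, 24.3 and 22.3 CPM in OE-labelled libraries, against 22.2, 27.4, 23.1 and 22.7 CPM in wild-type libraries. Its highest value was wild-type replicate 2, and the other 7 libraries lay within a narrow band. Its log2 fold change was -0.044 ± 0.081 (edgeR adjusted p = 0.873; exact permutation p = 0.771).

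Htr1b encodes a receptor that sits on axon terminals and curbs transmitter release (chromosome 9, 81628291 to 81633828, minus strand). Its values were 6.87, 7.56, 6.50 and 8.25 CPM in OE-labelled libraries, against 8.82, 8.91, 6.75 and 8.93 CPM in wild-type libraries. For Htr1b 3 wild-type libraries were above every OE-labelled one, and wild-type replicate 3 was lower than 3 of the 4. A log2 fold change of -0.20 ± 0.13 resulted (edgeR adjusted p = 0.579; exact permutation p = 0.20), and without wild-type replicate 3 it was -0.29 (edgeR adjusted p = 0.322). An antisense gene, D430036J16Rik, overlaps 852 exon bases or 18% of Htr1b. Through that overlap, 17.1% of the 50-base stretches of Htr1b transcripts also occur in other genes, and without D430036J16Rik the share is 0.899%. The library kit keeps strand, but with the strand setting of the counting unknown some reads of the 2 genes may not have been told apart. D430036J16Rik had 0.788 ± 0.293 CPM in OE-labelled and 1.02 ± 0.20 CPM in wild-type libraries. The other 9 receptors shared no 50-base stretch with another annotated gene.

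Htr1f (chromosome 16, 64924729 to 65105854, minus strand), whose product is a target of migraine drugs, had 2.44, 2.48, 1.92 and 1.94 CPM in OE-labelled libraries, against 2.78, 2.50, 1.28 and 1.47 CPM in wild-type libraries. Both groups split into replicates 1 and 2 above and replicates 3 and 4 below, with the wild-type values farther apart. Its log2 fold change was 0.13 ± 0.26 (edgeR adjusted p = 0.881; exact permutation p = 0.514), and without wild-type replicate 3 it was -0.035.

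Htr1d, a close relative of Htr1b that also acts on nerve terminals (chromosome 4, 136423524 to 136444398, plus strand), rested on few reads. It had 6, 10, 25 and 56 counts in OE-labelled libraries, against 26, 32, 24 and 64 counts in wild-type libraries, which is 0.115, 0.207, 0.413 and 1.11 CPM against 0.579, 0.683, 0.438 and 1.27 CPM. In 3 OE-labelled libraries the level lay below all wild-type ones, and replicate 4 was the highest of its group on both sides. Counting error alone spans 0.0423 to 0.251 CPM in OE-labelled replicate 1 and 0.836 to 1.44 CPM in OE-labelled replicate 4 (95% exact Poisson intervals), so the libraries of that group differ by more than the counting error. The log2 fold change was -0.69 ± 0.56 (edgeR adjusted p = 0.673; exact permutation p = 0.229). Without OE-labelled replicate 4 it was -1.57 (edgeR adjusted p = 0.464), without wild-type replicate 4 it was -0.30, and without OE-labelled replicates 1 and 2 it was 0.027.

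No relation between Htr1d and a marker list passed adjustment over the 130 relations computed between the 10 receptors and 13 marker lists. The closest was with microglia markers, whose sum was 386, 393, 358 and 331 CPM in OE-labelled and 341, 347, 363 and 317 CPM in wild-type libraries. Across the 8 libraries Htr1d and the microglia sum had Pearson r = -0.96 and Spearman rho = -0.93 (exact permutation p = 0.00062 and 0.0022, adjusted to 0.081 and 0.290), and r = -0.97 without the 2 libraries farthest from the median sum. Within the 4 OE-labelled libraries r was -0.96 and within the 4 wild-type libraries -0.95. Next came the sums of excitatory neuron, astrocyte, serotonergic cell and Pvalb or Sst interneuron markers, with r of -0.72, -0.71, 0.71 and -0.69 and rho of -0.71, -0.55, 0.55 and -0.55 (adjusted permutation p of 0.541 for each r). Without the 2 farthest libraries these r were -0.25, -0.32, 0.68 and -0.74. Striatal neurons also hold Htr1d, as background, and the summed level of 10 of their markers was 244, 435, 442 and 526 CPM in OE-labelled libraries and 390, 324, 259 and 472 CPM in wild-type libraries. The library highest in each group for this sum was also highest for Htr1d, with r = 0.60 and rho = 0.60 across all 8 (exact permutation p = 0.12 and 0.13, adjusted to 0.595 and 0.717) and r = 0.27 without the 2 farthest. The part of these markers in the Htr1d values was not tested.

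Of the Gq-coupled receptors, Htr2a is the receptor through which classical hallucinogens act and is abundant in cortical pyramidal neurons (chromosome 14, 74640840 to 74709494, plus strand). It had 50.4, 45.9, 43.8 and 39.0 CPM in OE-labelled libraries, against 51.4, 48.0, 37.8 and 42.4 CPM in wild-type libraries. The 2 ranges almost coincided, and the log2 fold change was -0.0034 ± 0.092 (edgeR adjusted p = 0.994; exact permutation p = 1).

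Htr2c had the lowest edgeR p of the 10 receptors, 0.107 before adjustment. It encodes the Gq-coupled receptor that is most abundant in choroid plexus epithelium and is also found in neurons (chromosome X, 146962513 to 147197277, plus strand). Its values were 14.3, 21.7, 18.7 and 20.7 CPM in OE-labelled libraries, against 22.1, 20.8, 22.5 and 39.9 CPM in wild-type libraries. Of the OE-labelled libraries 3 lay below all wild-type ones, OE-labelled replicate 2 lay inside the wild-type range, and wild-type replicate 4 was far above the other 7 libraries. The log2 fold change was -0.48 ± 0.26 (edgeR adjusted p = 0.556; exact permutation p = 0.0571). The coefficient of variation over the wild-type libraries was 34.4%, against 4.21% without replicate 4 and 2.95% from counting alone.

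Wild-type replicate 4, the library with the high Htr2c value, was the one with 2070 CPM of choroid plexus markers. Ttr, the thyroid hormone carrier that epithelium secretes, was at 982 CPM there and at 2.41 to 90.8 CPM in the other wild-type libraries, while OE-labelled libraries had 4.63 to 90.6 CPM. None of the 10 markers was at 0 in all libraries. All 10 had a log2 fold change below 0 with all libraries, and 0 passed the edgeR test. Without wild-type replicate 4, 7 were below 0 and 3 above. Ttr had -0.28 ± 1.64 and Otx2, a transcription factor of that epithelium, 1.30 ± 0.55 (edgeR adjusted p = 0.969 and 0.462). Without wild-type replicate 4 the log2 fold change of Htr2c was -0.21 ± 0.11 (edgeR adjusted p = 0.555). Slc29a4, a low-affinity monoamine transporter of choroid plexus and brain, showed the same library: it had 5.08, 5.41, 4.81 and 4.55 CPM in OE-labelled libraries, against 4.01, 4.55, 6.31 and 12.5 CPM in wild-type libraries. Its log2 fold change was -0.46 ± 0.35 with all libraries and -0.0024 ± 0.17 without wild-type replicate 4 (edgeR adjusted p = 0.665 and 0.997). Across the 8 libraries Htr2c and the choroid plexus sum had Pearson r = 0.87 and Spearman rho = 0.74 (exact permutation p = 0.029 and 0.046, adjusted to 0.541 and 0.717). Without wild-type replicates 3 and 4 this r was 0.14. OE-labelled replicate 3 and wild-type replicate 3, with sums of 438 and 449 CPM, had 18.7 and 22.5 CPM of Htr2c. Choroid plexus was not the list with the lowest p for Htr2c. With the excitatory neuron sum Htr2c had r = -0.79 and rho = -0.45 (exact permutation p = 0.020 and 0.27, adjusted to 0.541 and 0.790). Without wild-type replicate 4 and OE-labelled replicate 1 that r was 0.11. Wild-type replicate 4 also had the lowest excitatory neuron sum, at 7846 CPM. The part of choroid plexus or of excitatory neurons in the Htr2c values was not tested.

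**Figure D3:**
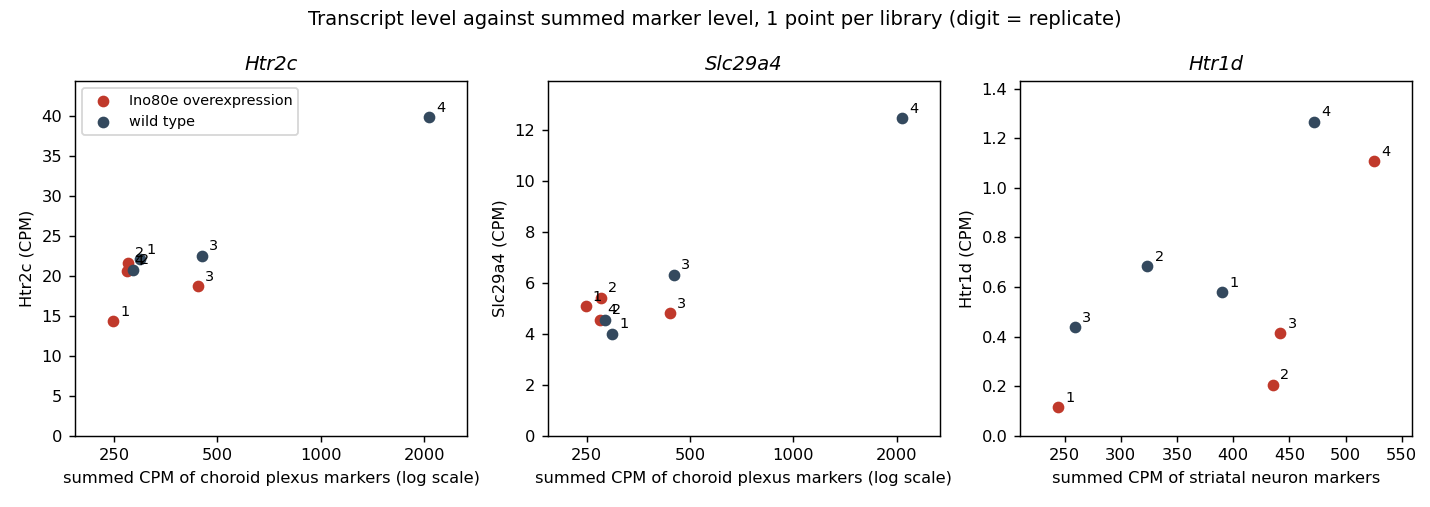
Level of Htr2c and of Slc29a4 against the summed level of 10 choroid plexus markers (log x axis), and level of Htr1d against the summed level of 10 striatal neuron markers, all in CPM with 1 point per library and digits for replicates. Wild-type replicate 4 lies alone at 2070 CPM of choroid plexus markers, with the highest Htr2c and Slc29a4, and replicate 4 of each group is highest for Htr1d.

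Htr2c transcripts are spliced and edited in ways that change the protein, as background: adenosines in a short coding stretch are turned to inosine by the enzymes of Adar and Adarb1, and skipping of the end of that exon truncates the receptor. The stretch is shown because it separates the annotated transcripts, being present in 2 of 4 coding transcripts and absent in 2, while the deposited counts are per gene and do not separate them or the edited forms. In GRCm38 it spans chrX:147169676-147169770 on the plus strand, 95 bases. Capitals mark these bases, and the 20 bases before them, in lower case, belong to the same exon in all 4.
Htr2c: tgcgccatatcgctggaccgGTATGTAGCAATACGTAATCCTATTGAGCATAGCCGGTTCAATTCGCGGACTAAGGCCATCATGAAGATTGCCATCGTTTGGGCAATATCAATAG
Adar had 212, 192, 211 and 198 CPM in OE-labelled libraries, against 193, 204, 199 and 198 CPM in wild-type libraries, and its log2 fold change was 0.035 ± 0.049 (edgeR adjusted p = 0.828). Exons of Adar overlap those of Chrnb2 on the other strand over 1365 bases, so with the strand setting unknown its counts are uncertain. Adarb1 had 268, 238, 274 and 253 CPM in OE-labelled libraries, against 243, 271, 274 and 253 CPM in wild-type libraries, with a log2 fold change of -0.013 ± 0.054 (edgeR adjusted p = 0.952). The groups overlapped for both enzymes.

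The Gs-coupled receptors were represented by Htr7 and Htr4. Htr7, which is linked to circadian timing and mood (chromosome 19, 35958734 to 36057507, minus strand), had 9.87, 8.74, 9.56 and 10.2 CPM in OE-labelled libraries, against 10.7, 9.44, 10.1 and 10.2 CPM in wild-type libraries. Its spread was among the smallest of the receptors, with a coefficient of variation of 6.54% in OE-labelled and 5.02% in wild-type libraries. The log2 fold change was -0.075 ± 0.104 (edgeR adjusted p = 0.825; exact permutation p = 0.286).

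Htr4, a receptor of the gut and of forebrain neurons (chromosome 18, 62324204 to 62496577, plus strand), had 43, 34, 34 and 37 counts in OE-labelled libraries, against 48, 10, 33 and 60 counts in wild-type libraries. These are 0.827, 0.702, 0.562 and 0.732 CPM in OE-labelled libraries and 1.07, 0.214, 0.602 and 1.19 CPM in wild-type libraries. The wild-type values enclosed the OE-labelled ones, from the low of replicate 2 to the high of replicate 4, and the Poisson interval of replicate 2, 0.102 to 0.393 CPM, lay below that of replicate 4, 0.907 to 1.53 CPM. The log2 fold change was -0.12 ± 0.44 (edgeR adjusted p = 0.942; exact permutation p = 0.943). It was 0.17 without wild-type replicate 4 and -0.43 without wild-type replicate 2.

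The ion channel subunit gene Htr3a is, in cortex, a marker of interneurons that derive from the caudal ganglionic eminence (chromosome 9, 48899213 to 48911099, minus strand). It had 5.65, 5.18, 6.05 and 5.71 CPM in OE-labelled libraries, against 5.72, 5.83, 6.31 and 5.62 CPM in wild-type libraries. All 8 libraries lay close together, and the spread within a group, 6.31% in OE-labelled and 5.17% in wild-type libraries, was about that of counting alone, 5.82%. For Htr3a the log2 fold change was -0.055 ± 0.132 (edgeR adjusted p = 0.908; exact permutation p = 0.400). The summed level of 12 markers of those interneurons, among them Vip and Lamp5, was 859 to 947 CPM in OE-labelled and 903 to 991 CPM in wild-type libraries, and these ranges overlapped.

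**Figure D4:**
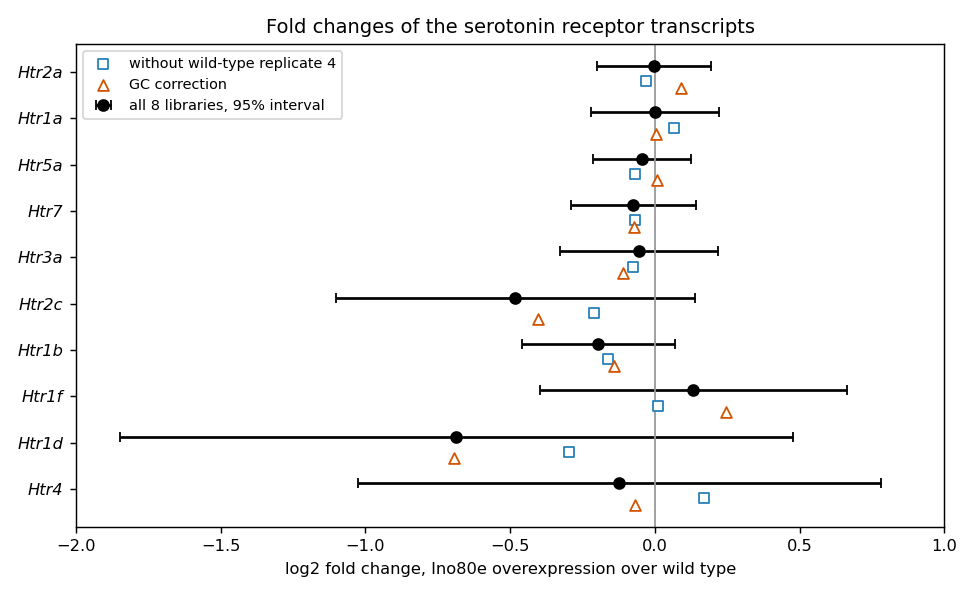
Log2 fold change of each receptor transcript, libraries labelled Ino80e overexpression over wild type (x axis), with its 95% interval as a black bar, beside the value without wild-type replicate 4 (squares) and the value after a correction for GC content (triangles). Every interval includes 0, and the Htr2c value moves from -0.48 to -0.21 when wild-type replicate 4 is left out.

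Fold changes across the table moved with base composition: over 11326 genes of at least 5 CPM, the log2 fold change and transcript GC content had a rank correlation of 0.638. The receptors' transcripts had 39.4% to 53.4% GC, and 8 of 10 lay below the median of 49.6% of the genes tested. After a correction for GC content 4 receptors were above 0 and 6 below, with a median log2 fold change of -0.071 and 0 of 10 past the threshold. The corrected log2 fold change was 0.25 for Htr1f, -0.11 for Htr3a and 0.089 for Htr2a, against 0.13, -0.055 and -0.0034 without the correction. For Adar it was -0.021, so the sign turned, and for Adarb1 it was -0.063.

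Pairs of receptors varied from library to library in both directions, some together and some oppositely. Over the 8 libraries the highest correlation of log2 CPM between any 2 receptors was r = 0.86 for Htr1f and Htr2a, followed by r = 0.71 for Htr1d and Htr2c. The lowest was r = -0.83 for Htr4 and Htr5a, followed by r = -0.54 for Htr1f and Htr3a. These are descriptions over libraries that share the depth and the tissue makeup of each dissection. The ratio of Htr1a to Htr2a in length-scaled level ran from 0.557 to 0.694 in OE-labelled and from 0.493 to 0.729 in wild-type libraries, and the ratio of Htr2c to Htr2a from 0.171 to 0.318 in OE-labelled and from 0.258 to 0.565 in wild-type libraries.

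For the 3 receptors with the lowest p, the genes most like them in log2 CPM over the 8 libraries were listed, among 14298 tested genes of at least 1 CPM. Nearest to Htr2c were Snw1 (r = 0.98, rho = 0.83), Kat2b (r = 0.97, rho = 0.90) and Arhgap12 (r = 0.96, rho = 0.95). Htr1b was most like Ergic2 (r = 0.98, rho = 0.93), Thoc7 (r = 0.97, rho = 0.88) and C130083M11Rik (r = 0.96, rho = 0.98). Htr1d was most like Inafm2 (r = 0.96, rho = 0.90), Kbtbd11 (r = 0.95, rho = 0.88) and Zdhhc9 (r = 0.95, rho = 0.98). An r over 0.9 was reached by 21 genes for Htr2c, 30 for Htr1b and 16 for Htr1d. With 14298 genes compared over only 8 libraries, unrelated genes can also reach such r, and the number expected by chance was not computed. The genes named are therefore a description and are not shown to be expressed together with the receptors.

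The other serotonin receptor genes were Htr6, Htr5b, Htr2b and Htr3b. Htr6, a Gs-coupled receptor, was at 7.43 ± 0.36 CPM in OE-labelled and 7.53 ± 0.75 CPM in wild-type libraries (log2 fold change -0.019 ± 0.121; edgeR adjusted p = 0.970). Htr5b, which encodes a functional receptor in mouse and not in human, had 0.769, 1.03, 0.595 and 1.90 CPM in OE-labelled libraries, against 0.936, 0.598, 0.492 and 0.495 CPM in wild-type libraries. The ranges overlapped, and its log2 fold change was 0.77 ± 0.40 (edgeR adjusted p = 0.501). Htr2b and Htr3b did not pass the filter on low counts: Htr2b had 1 to 2 counts in OE-labelled and 0 to 13 counts in wild-type libraries, and Htr3b had at most 2 and at most 4.

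Of 11 genes of serotonin synthesis, transport and breakdown, 7 were tested and 0 passed the threshold. Tph2, the enzyme that starts serotonin synthesis in neurons, was at 0.791 ± 0.241 CPM in OE-labelled and 0.988 ± 0.195 CPM in wild-type libraries (edgeR adjusted p = 0.768). Slc6a4, the serotonin transporter, had 0 to 12 counts in OE-labelled and 0 to 4 in wild-type libraries. Slc18a2, the vesicular monoamine transporter, was at 3.56 ± 0.69 CPM in OE-labelled and 4.16 ± 0.69 CPM in wild-type libraries (edgeR adjusted p = 0.675). The breakdown enzyme gene Maob was at 29.0 ± 2.7 CPM in OE-labelled and 31.0 ± 1.3 CPM in wild-type libraries (edgeR adjusted p = 0.647).

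Across the 72 other pathway genes, 66 were tested and 0 had an adjusted p under 0.05 in edgeR's test. An unadjusted p under 0.05 was found for 12 of the 66, 7 above 0 and 5 below, beside 10.7% of all genes (5.24% above and 5.43% below), and the median log2 fold change of the 66 was -0.0023. After the correction for GC content 3 of the 66 had an unadjusted p under 0.05, beside 5.08% of all genes: Gng2, Rgs2 and Grk5. Of the 14 Gi/o and GIRK genes 4 were among the 12, of the 10 Gq genes 1, of the 18 Gs and cyclic AMP genes 3, and of the 15 partner, desensitisation and editing genes 4. The lowest p of the 66 belonged to Rgs2, a regulator that shortens Gq signals. It had 32.5, 33.8, 28.0 and 32.8 CPM in OE-labelled libraries, against 36.8, 42.2, 32.3 and 43.7 CPM in wild-type libraries. Wild-type replicate 3 lay among the OE-labelled values and the other 3 were above them, and the log2 fold change was -0.29 ± 0.09 (edgeR adjusted p = 0.315). After the GC correction its value was -0.22. With no filter on low counts it passed the threshold (edgeR adjusted p = 0.0257).

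In the Gi/o list, Gnb2, a beta subunit of G proteins, had 178, 161, 178 and 162 CPM in OE-labelled libraries, against 150, 147, 157 and 153 CPM in wild-type libraries. These groups did not overlap, and its log2 fold change was 0.16 ± 0.05 (edgeR adjusted p = 0.315), or 0.047 ± 0.048 after the GC correction. Gng2, a gamma subunit, had 156, 165, 153 and 148 CPM in OE-labelled libraries, against 172, 196, 166 and 170 CPM in wild-type libraries. Every OE-labelled library was below every wild-type one, and its log2 fold change was -0.18 ± 0.06 (edgeR adjusted p = 0.315), or -0.11 ± 0.05 after the GC correction. A noncoding gene on the other strand, Gm48283, overlaps 897 exon bases or 20.4% of Gng2, so its counts are uncertain in the same way as those of Adar. Gng2 also marks claustrum neurons. The other 4 claustrum markers measured summed to 110, 109, 105 and 92.7 CPM in OE-labelled libraries, against 123, 115, 108 and 112 CPM in wild-type libraries, and these groups overlapped. The Gi-family alpha subunit gene Gnaz had a log2 fold change of 0.13 ± 0.05 and Rgs4, which shortens Gi and Gq signals, one of -0.13 ± 0.06 (edgeR adjusted p = 0.401 and 0.453), or 0.056 and -0.061 after the GC correction. Of the 66 tested pathway genes, Gnb2, Gng2, Gnaz, Arrb2 and Grk6 had groups that did not overlap in CPM, beside 5.84% of all genes.

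For the Gq, Gs and partner lists, the genes with the lowest p after Rgs2 had values of like size. On the Gq side Plcb3 had a log2 fold change of 0.19 ± 0.09, Plcb4 one of -0.10 ± 0.06 and Prkca one of -0.085 ± 0.055, the first 2 being phospholipase C genes and the last a protein kinase C gene (edgeR adjusted p from 0.477 to 0.574). The GC-corrected values of these 3 were 0.0996, -0.029 and -0.045. On the Gs side Prkar2b, a regulatory subunit of protein kinase A, had -0.14 ± 0.06, Rapgef3, a cyclic AMP sensor, 0.17 ± 0.08, and the adenylyl cyclase genes Adcy5 and Adcy9 had 0.15 ± 0.07 and 0.12 ± 0.07, all as log2 fold changes (edgeR adjusted p from 0.445 to 0.554). After the GC correction they were -0.071 for Prkar2b, 0.091 for Rapgef3, 0.040 for Adcy5 and 0.023 for Adcy9. Farthest from 0 in the Gs list, at a higher p, was Rapgef4, with -0.34 ± 0.39 (edgeR adjusted p = 0.791), or -0.30 after the GC correction. Rapgef4 had 195, 660, 678 and 633 CPM in OE-labelled libraries, against 739, 634, 711 and 663 CPM in wild-type libraries. Among partners, Arrb2, a beta-arrestin, had 0.20 ± 0.07, Grk5, a receptor kinase, -0.19 ± 0.08, and the regulators of Htr1a transcription Deaf1 and Cc2d1a 0.19 ± 0.07 and 0.13 ± 0.06 as log2 fold changes (edgeR adjusted p from 0.339 to 0.419). With the correction Arrb2 had 0.12, Grk5 -0.18, Deaf1 0.12 and Cc2d1a 0.019. Htr1a itself had a log2 fold change of -0.0012.

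**Figure D5:**
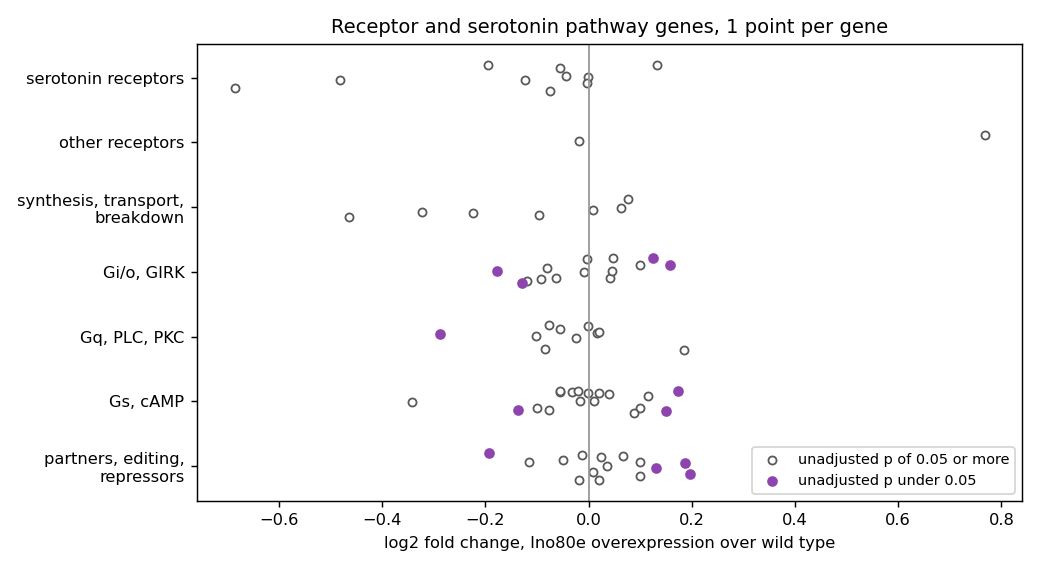
Log2 fold change (x axis), libraries labelled Ino80e overexpression over wild type, of the 10 receptors and of the 66 tested pathway genes by list, 1 point per gene, with filled points for an unadjusted p under 0.05. The 12 filled points lie on both sides of 0, and none is a serotonin receptor.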

How the data were processed

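The deposited table holds raw read counts per Ensembl gene, made by the authors. The submitters' processing notes list Trimmomatic 0.39, STAR 2.7.10 and featureCounts 2.0.3, with mm10 and GRCm38 as builds. Which strand setting, annotation and handling of multi-mapping reads were used was not given in the sources used here. Libraries were strand-specific (dUTP) and poly(A)-selected, per the labels' protocols. Symbols came from GENCODE for GRCm38 (54409 of 54446 identifiers).

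Genes were filtered with filterByExpr, scaled by TMM and tested with the robust quasi-likelihood F test of edgeR 4.0.16 in R 4.3.3, with Benjamini-Hochberg adjustment over 17636 genes and 0.05 as threshold. Intervals are 95% intervals. Permutation tests between the groups took log2(CPM + 0.1) over 70 arrangements. Those of the relations between receptors and marker lists ran over all orderings of the 8 libraries. They took log2(CPM + 0.1) of the receptor and log2 of the marker sum. The test was tested on simulated data. No 2 libraries were copies: over 28 pairs, chi-square divided by its degrees of freedom was at least 9.53, and pure sampling noise gives about 1. Poisson intervals cover counting error only.

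Alternatives were RLE and upper-quartile scaling, other filters, DESeq2 1.42.0, limma-voom (limma 3.58.1), a block for the replicate number, no robust estimation, a GC correction (spline with 5 degrees of freedom) and leaving out libraries. The receptors, gene lists, marker lists and alternatives were chosen with earlier results of these data known. The text names all 10 receptors, Ino80e and up to 4 genes per pathway list with the lowest p. It also names the 3 genes most like each of 3 receptors, and the markers that bear on them. Named beyond that rule are Adar, Adarb1, Htr2b, Htr3b, Slc6a4, Slc18a1, Fev, Rapgef4, Grk6, Otx2, Ttr and the overlapping genes.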

Additional observations from a re-analysis of the deposited data

Results flagged for a closer look

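In 78 groups of 4 libraries (receptors, the serotonin genes around them and marker sums), the highest or lowest library was set against the rest by Dixon's test at the 95% level. It stood apart in 9 of them, and chance gives about 1 in 20. Among the 10 receptors, wild-type replicate 3 was low for Htr1b at 6.75 CPM, wild-type replicate 4 was high for Htr2c at 39.9 CPM and wild-type replicate 2 was high for Htr5a at 27.4 CPM.

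Of the marker sums, choroid plexus markers stood apart in both groups, at 438 CPM in OE-labelled replicate 3 and at 2070 CPM in wild-type replicate 4. Oligodendrocyte markers were low in OE-labelled replicate 1 at 4202 CPM. At levels of a few reads, 1 wild-type library each stood apart for Htr3b at 0.0792 CPM, for the vesicular transporter gene Slc18a1 at 0.257 CPM and for Fev, a transcription factor of serotonin neurons, at 0.0854 CPM. For Htr3b and Fev the other 3 wild-type libraries were at 0, which fixes that outcome, and without groups of this kind 7 of 76 stood apart.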

How the results depend on the processing

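No receptor passed the threshold in any alternative that gave it an adjusted p: 186 of 188 values had one, and DESeq2 gave none for Htr1d and Htr4. An unadjusted p under 0.05 was found 5 times, for Htr2c with limma-voom, without robust estimation and with the replicate block, for Htr1d without OE-labelled replicate 4 and for Htr1b without wild-type replicate 3. Over all genes tested, 1848, 1878 and 1917 of 17636, 1684 of 17952 and 2477 of 17975 had such a p in these settings, in that order. In each of them it was 1 of the 10 receptors. Of the 188 recomputed log2 fold changes 159 kept their direction and 29 changed sign. The interval of every receptor included 0 in the main fit, so this does not set some receptors apart. For Htr1a the sign changed with upper-quartile scaling (0.0059), no low-count filter (0.0013), limma-voom (0.023), the replicate block (0.014), the GC correction (0.0026) and without OE-labelled replicates 2 and 3 (0.057). Htr2a changed sign with upper-quartile scaling (0.0043), limma-voom (0.0067) and the GC correction (0.089), Htr5a with the GC correction (0.0071), and Htr4 with limma-voom (0.11), the replicate block (0.050) and without OE-labelled replicates 2 and 3 (0.021). Without OE-labelled replicates 1 and 2 the values were 0.027 for Htr1d, -0.053 for Htr1f and 0.0028 for Htr3a. Leaving out 1 library at a time gave -0.11 to 0.074 for Htr1a, -0.035 to 0.33 for Htr1f, -0.078 to 0.068 for Htr2a, -0.43 to 0.17 for Htr4 and -0.076 to 0.026 for Htr5a. The cause was not tested.

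The count over all genes, 6, was 83 with no low-count filter, 44 with DESeq2, 2 with limma-voom, 2 without robust estimation, 1 without OE-labelled replicates 2 and 3, 11 without OE-labelled replicates 1 and 2, and 1 to 8 leaving out 1 library at a time. The pathway count, 0, was 1 with no low-count filter (Rgs2). With the longest transcript as length, Htr2c was at 4.63 and Htr7 at 3.12. Htr1d and Htr4 were not tested with the filter of 1 CPM in 4 libraries. These 2 had 30.4 and 37.4 counts per library on average, with a counting error of 18.1% and 16.4%. The spread was larger, at 97.4% in OE-labelled and 49.1% in wild-type libraries for Htr1d and 58.3% in wild-type libraries for Htr4, but 15.5% in OE-labelled libraries for Htr4.

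Same-numbered libraries did not deviate together over the genes tested (r from -0.051 to 0.027), and the main fit did not pair them. These r cannot decide whether same-numbered libraries were handled together. With the replicate block 1 gene was called in all, 0 receptors and 0 pathway genes.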
